A study of Mus musculus with 8 samples.

Results

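Astrocyte marker genes were followed through 4 groups of mouse hippocampus that differ in the kinase Pyk2. The set consists of 10 genes chosen by name as textbook markers of astrocytes (Gfap, S100b, Aqp4, Gja1, Gjb6, Glul, Aldoc, Aldh1l1, Sox9 and Fgfr3), out of 17705 genes that could be matched between the deposited tables. The choice was made with earlier results of these data known. All 10 were found in every library, and all 10 passed the filter on low values (a mean FPKM of 1 or more, FPKM being fragments scaled to transcript length and library size). RNA-seq was made from hippocampus of C57BL/6 mice in a study of Pyk2 and contextual fear memory. The groups, with 2 libraries each, were CRISPR pyk2 KO mice (KO), CRISPR pyk2 Y402F mutant mice, whose kinase lacks its autophosphorylation site (Y402F), wild-type controls of the KO line (KO controls) and wild-type controls of the Y402F line (Y402F controls). No tissue-specific driver is named for either mutation. The labels state neither age nor sex, nor whether libraries came from single animals or pools, so p-values measure only how far these libraries spread, and that spread may be technical.

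Astrocytes are the glial cells that wrap synapses and blood vessels. They take up glutamate and potassium released by neurons, convert glutamate to glutamine, and are joined into networks by gap junctions. Injury makes them reactive, a state in which Gfap usually rises. In the hippocampus some of these markers are shared with other cells, since Gfap and Sox9 also mark the radial glia-like stem cells of the dentate gyrus, S100b and Glul are also found in oligodendrocytes, and Sox9 in choroid plexus.

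The region around the transcription start is printed for 5 members, picked by a result given further down. Gfap, S100b, Glul and Aldoc were called together in the comparison of the wild-type groups, where Gja1 lay on the other side without being called. Each window holds the 250 bases before and the 50 bases after the RefSeq start on GRCm38.p6, written 5′ to 3′ on the strand of the gene. Capitals mark matches, on either strand, to the NFI half-site TTGGC, the STAT element TTCNNNGAA or the SOX core ACAAT, short motifs of factor families that act in astrocyte development. Of 32851 RefSeq windows of the same length, 46.7% held the NFI half-site, 8.30% the STAT element and 31.0% the SOX core. The TATA box TATAAA, searched in the same way and held by 13.6% of windows, had no match in these 5.
Gfap (chr11:102897151-102897450, minus strand): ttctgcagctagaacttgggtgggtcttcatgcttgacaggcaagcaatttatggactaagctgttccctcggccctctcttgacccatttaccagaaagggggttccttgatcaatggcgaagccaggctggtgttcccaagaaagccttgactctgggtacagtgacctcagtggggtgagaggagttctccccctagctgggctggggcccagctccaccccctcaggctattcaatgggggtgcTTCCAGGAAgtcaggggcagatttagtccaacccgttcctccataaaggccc
S100b (chr10:76253586-76253885, plus strand): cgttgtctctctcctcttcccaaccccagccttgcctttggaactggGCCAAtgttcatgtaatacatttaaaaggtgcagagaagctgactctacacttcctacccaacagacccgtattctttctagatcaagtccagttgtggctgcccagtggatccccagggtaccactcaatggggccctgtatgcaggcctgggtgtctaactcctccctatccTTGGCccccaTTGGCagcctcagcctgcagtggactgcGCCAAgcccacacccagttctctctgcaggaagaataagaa
Glul (chr1:153899679-153899978, plus strand): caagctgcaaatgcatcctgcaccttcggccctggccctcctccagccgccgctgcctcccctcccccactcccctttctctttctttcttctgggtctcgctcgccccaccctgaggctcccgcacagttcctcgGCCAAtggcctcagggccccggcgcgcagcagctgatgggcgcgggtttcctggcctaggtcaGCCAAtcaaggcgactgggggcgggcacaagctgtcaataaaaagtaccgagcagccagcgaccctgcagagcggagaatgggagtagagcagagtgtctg
Aldoc (chr11:78322823-78323122, plus strand): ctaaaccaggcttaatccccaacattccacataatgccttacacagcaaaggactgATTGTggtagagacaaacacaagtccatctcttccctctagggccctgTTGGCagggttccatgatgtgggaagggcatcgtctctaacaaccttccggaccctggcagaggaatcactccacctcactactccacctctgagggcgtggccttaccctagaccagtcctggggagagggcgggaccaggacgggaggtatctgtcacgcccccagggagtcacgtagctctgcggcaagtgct
Gja1 (chr10:56377050-56377349, plus strand): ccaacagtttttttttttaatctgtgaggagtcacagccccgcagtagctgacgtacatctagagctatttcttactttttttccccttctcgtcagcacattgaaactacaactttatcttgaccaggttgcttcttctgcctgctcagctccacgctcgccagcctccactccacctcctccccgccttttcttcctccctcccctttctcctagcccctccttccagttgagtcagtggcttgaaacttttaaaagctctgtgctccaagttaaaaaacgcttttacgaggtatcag
The Gfap window held 1 STAT element and no NFI half-site. The S100b window held 4 NFI half-sites, the Glul window 2, and the Aldoc window 1 together with 1 SOX core. Of the 7 members whose windows were searched, Gja1, Gjb6 and Fgfr3 held none of the 4 motifs. No window of Aqp4, Aldh1l1 or Sox9 was among them, although Aqp4 and Sox9 also lay lower in KO controls than in Y402F controls. A match describes these letters and is not evidence that a factor binds.

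The 4 mutant libraries held 5756180 to 6017219 expected counts, and the control tables give no read numbers. Mutants and controls were deposited in tables made differently, so processing and genotype cannot be told apart wherever a mutant is set against its controls. The comparisons of KO with Y402F and of the wild-type groups with each other stay within one kind of table. Ptk2b, which encodes Pyk2, was at 55.8 and 68.4 scaled FPKM in KO, 352 and 394 in Y402F, 308 and 307 in KO controls and 322 and 316 in Y402F controls. The Y-linked gene Ddx3y was above 4 scaled FPKM in replicate 2 of KO, replicate 2 of Y402F and the Y402F controls (male pattern), and below 0.1 in the other 4 libraries, the KO controls among them (female pattern). Other sex genes were less clear in the KO controls, where Xist was at 3.94 and 3.23 scaled FPKM, against 25.4 in KO replicate 1 and 39.98 in Y402F replicate 1, and KO control replicate 2 held 0.684 of the Y-linked Eif2s3y and 0.269 of Kdm5d. Choroid plexus RNA, read from 10 genes, summed to 40.5 and 54.3 scaled FPKM in KO, 40.02 and 753 in Y402F, 50.0 and 49.1 in KO controls and 1145 and 1172 in Y402F controls. Ttr was the largest part in Y402F replicate 2 (653) and the Y402F controls (1011 and 1028). In the other libraries Enpp2 was the largest part (32.4 to 37.6), with Ttr at 1.19 to 10.2. Of these 10 genes, Kcnj13 was at 0 in both KO libraries, and Aqp1 and Kcne2 at 0 in both KO controls. As a check for neural tissue, though not for the brain region, 11 neuronal markers summed to 3816 scaled FPKM or more in all 8 libraries.

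Levels are given as scaled FPKM, the deposited FPKM divided by 1 factor per library, which allows genes to be compared per length of transcript. In bulk tissue, fewer astrocytes and less RNA per astrocyte cannot be told apart. Gfap encodes the intermediate filament protein of the astrocyte cytoskeleton and lies on chromosome 11 (102887336 to 102900912, minus strand, GRCm38, as do all positions here). It was at 185 and 219.9 scaled FPKM in KO, 162 and 182 in Y402F, 215 and 218 in KO controls and 143 and 139 in Y402F controls. The Y402F controls held the lowest levels, below every other library, and KO overlapped its controls. S100b, a calcium-binding protein gene (chromosome 10, 76253853 to 76261159, plus strand), was at 78.2 and 63.1 scaled FPKM in KO, 63.5 and 71.7 in Y402F, 96.3 and 100.1 in KO controls and 70.3 and 67.6 in Y402F controls. Both KO controls stood above the other 6 libraries, which overlapped among themselves. The 3' part of S100b is overlapped on the opposite strand by Dip2a, at 7.71 to 12.9 FPKM in the controls, and the tables do not say whether reads were counted by strand.

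Aqp4 encodes the water channel of the endfeet that astrocytes place on blood vessels (chromosome 18, 15389496 to 15410982, minus strand). Its level was 26.0 and 27.9 scaled FPKM in KO, 27.1 and 25.1 in Y402F, 20.3 and 20.6 in KO controls and 26.8 and 26.7 in Y402F controls. The KO controls were the low group, and the other 6 libraries lay close together. Gja1, the gene of connexin 43 (chromosome 10, 56377330 to 56402513, plus strand), forms the gap junctions of astrocytes together with Gjb6, the gene of connexin 30 (chromosome 14, 57123303 to 57133611, minus strand). Gja1 was at 97.9 and 96.4 scaled FPKM in KO, 98.8 and 108.5 in Y402F, 70.0 and 90.7 in KO controls and 99.99 and 104 in Y402F controls. Gjb6 was at 20.5 and 19.5 scaled FPKM in KO, 17.6 and 21.7 in Y402F, 52.2 and 37.9 in KO controls and 27.7 and 32.9 in Y402F controls. The connexins thus took opposite places in the KO controls, where Gja1 had its lowest and Gjb6 its highest values. The upper confidence bound of Cufflinks for Gjb6 lay 52.6 to 58.8% above its value in the 4 control libraries, the widest of the 10 members, and for Gja1 15.1 to 34.4%.

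Glul encodes glutamine synthetase, which turns glutamate taken up at synapses into glutamine (chromosome 1, 153899944 to 153909723, plus strand). It was at 688 and 742 scaled FPKM in KO, 636 and 733 in Y402F, 768 and 829.9 in KO controls and 591 and 595 in Y402F controls. KO controls were highest and Y402F controls lowest, with the mutants between them. The microRNA gene Mir8114 lies on the same strand over the start of Glul and is listed at 908 to 3835 FPKM in the controls, and the tables do not say how reads shared by these genes were divided. Aldoc encodes aldolase C, the brain form of a glycolytic enzyme (chromosome 11, 78322968 to 78327781, plus strand). Aldoc was at 366 and 359 scaled FPKM in KO, 311 and 342 in Y402F, 1415 and 1468 in KO controls and 944 and 918 in Y402F controls. Its highest library exceeded its lowest by 4.71-fold, the widest range of the 10 members, against 1.18-fold among the mutants and 1.60-fold among the controls. Aldh1l1, which encodes a folate-metabolising dehydrogenase (chromosome 6, 90486427 to 90600203, plus strand), was at 12.8 and 16.0 scaled FPKM in KO, 13.5 and 13.4 in Y402F, 23.8 and 23.5 in KO controls and 21.7 and 18.5 in Y402F controls. As for Aldoc, each control library stood above each mutant library.

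Sox9 encodes a transcription factor of glial specification (chromosome 11, 112782224 to 112787760, plus strand). It was at 8.74 and 8.67 scaled FPKM in KO, 7.47 and 7.16 in Y402F, 6.52 and 7.13 in KO controls and 7.94 and 7.83 in Y402F controls. Sox9 had the narrowest range of the 10 members, 1.34-fold from lowest to highest library. Fgfr3, a receptor for fibroblast growth factors (chromosome 5, 33721674 to 33737068, plus strand), was at 21.0 and 27.1 scaled FPKM in KO, 22.4 and 26.5 in Y402F, 46.0 and 41.0 in KO controls and 39.5 and 39.0 in Y402F controls. Every control library was above every mutant library.

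**Figure D1:**
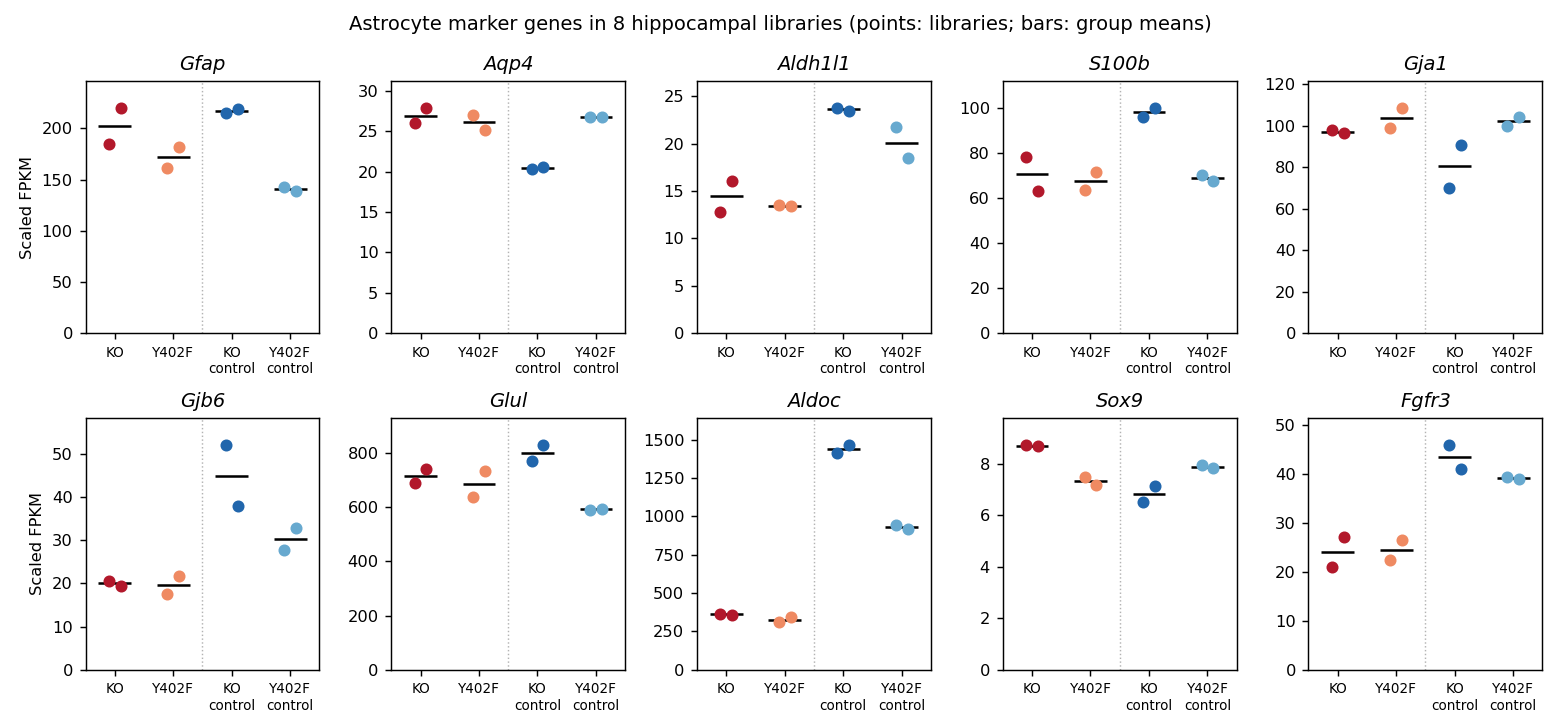
Scaled FPKM of the 10 astrocyte marker genes, 1 panel per gene with its own axis from 0, with 1 point per library and bars for group means (n = 2 per group). Aldoc, Gjb6, Fgfr3 and Aldh1l1 were higher in all 4 control libraries than in all 4 mutant libraries, while Gfap, S100b and Glul were highest on average in the KO controls.

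By mean level, both mutant groups had the same order of members, Glul, Aldoc, Gfap, Gja1, S100b, Aqp4, Fgfr3, Gjb6, Aldh1l1 and Sox9. In KO the means ran from 715 scaled FPKM (Glul) to 8.70 (Sox9), and in Y402F from 685 to 7.31. Aqp4 and Fgfr3 overlapped between libraries in both mutant groups, and no other neighbours in the order did. In both wild-type groups Aldoc came first, at 1441 scaled FPKM in KO controls and 931 in Y402F controls, followed by Glul and Gfap. In KO controls S100b stood above Gja1, and Gjb6 and Fgfr3 overlapped (45.0 and 43.5 scaled FPKM). In Y402F controls Gja1 stood above S100b, Fgfr3 above Gjb6, and no neighbours overlapped. Aqp4 took the ninth place in KO controls, the eighth in Y402F controls and the sixth in the mutants.

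KO was compared with its controls to ask what loss of Pyk2 does to the hippocampal transcriptome. The table difference described above is inseparable from genotype here. Aldoc, Gjb6, Fgfr3, Aldh1l1 and S100b were called lower in KO and Aqp4 higher, where a call is an adjusted p under 0.05 in limma over 12973 genes. Glul, Gfap, Gja1 and Sox9 were not called. These 6 of 10 calls stand beside a background of 37.6% of all genes called (16.6% higher and 21.0% lower). The median log2 difference of the members was -0.32, against 0.00 for all genes tested. The libraries of the groups did not overlap for 9 members, 3 higher and 6 lower in KO, which was also the case for 71.0% of all genes.

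Aldoc averaged 362 ± 5.59 scaled FPKM in KO and 1441 ± 37.2 in KO controls (SD, n = 2 each), which is -1.99 on the log2 scale (SE 0.07, limma adjusted p = 7.00e-07). KO thus held 0.252 times the level of its controls. Gjb6 averaged 20.004 ± 0.756 in KO and 45.0 ± 10.1 in KO controls, or -1.11 in log2 units (SE 0.17, limma adjusted p = 0.00164). Fgfr3 differed by -0.83 on the log2 scale (SE 0.15, limma adjusted p = 0.00280) and Aldh1l1 by -0.68 (SE 0.14, limma adjusted p = 0.00650). The transcript lengths in the mutant tables can be set beside those of the coding transcripts in GENCODE M21, since FPKM divides by length. The mutant length was 2684 to 2685 bases for Aldoc, whose GENCODE transcripts have 1700 and 2786 bases, 3098 for Aldh1l1 with 556 to 4175, and 4086 to 4217 for Fgfr3 with 601 to 4245. It was 2125 to 2133 for Gjb6, against 887 and 2105 bases in GENCODE. The part of these lengths in the differences was not tested.

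S100b averaged 70.7 ± 10.7 scaled FPKM in KO and 98.2 ± 2.69 in KO controls (log2 difference -0.48, SE 0.12, limma adjusted p = 0.0144). Its call was lost without KO replicate 2 (-0.33, limma adjusted p = 0.0790), without KO control replicate 2 (-0.45, 0.0683) and with quantile normalization (-0.21, 0.193). Aqp4 averaged 26.9 ± 1.33 in KO and 20.4 ± 0.189 in KO controls (0.38, SE 0.11, limma adjusted p = 0.0225). Its call was lost without each of the 4 libraries in turn (limma adjusted p = 0.0527 to 0.0999) and without scaling (0.25, 0.1002). Gja1 differed by 0.28 (SE 0.12, limma adjusted p = 0.107) and Sox9 by 0.31 (SE 0.14, 0.110). Gja1 was called higher without KO control replicate 2 (0.47, limma adjusted p = 0.0222) and with quantile normalization (0.56, 0.00614). Gfap differed by -0.11 (SE 0.10, limma adjusted p = 0.446) and Glul by -0.16 (SE 0.09, 0.178). The direction of both depends on the processing, since quantile normalization gave 0.19 for Gfap (limma adjusted p = 0.105) and 0.20 for Glul (0.0161). Glul was called lower without scaling (-0.30, limma adjusted p = 0.0249), and a term for sex called Gfap (-0.21, 0.0297) and Glul (-0.24, 0.0181) lower.

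Y402F was compared with its controls to ask what loss of the autophosphorylation site alone does, under the same confounding with table kind. Aldoc, Fgfr3, Aldh1l1 and Gjb6, which were also called in KO, were called lower in Y402F. No member was called higher, and S100b, Aqp4 and Gja1 had log2 differences near 0. These 4 of 10 calls stand beside 32.3% of all genes called (13.0% higher and 19.3% lower). The median log2 difference of the members was -0.07, against 0.00 for all genes. Gfap and Glul were higher and Aldh1l1, Gjb6, Aldoc, Sox9 and Fgfr3 lower in both Y402F libraries than in both controls, and 68.6% of all genes separated in this way.

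Aldoc averaged 327 ± 21.6 scaled FPKM in Y402F and 931 ± 17.9 in Y402F controls (SD, n = 2 each), or -1.51 in log2 units (SE 0.07, limma adjusted p = 2.74e-06). Y402F held 0.351 times the level of its controls. Fgfr3 averaged 24.4 ± 2.88 in Y402F and 39.3 ± 0.317 in Y402F controls (-0.67, SE 0.15, limma adjusted p = 0.00932). Aldh1l1 averaged 13.5 ± 0.0964 in Y402F and 20.1 ± 2.30 in Y402F controls (-0.54, SE 0.14, limma adjusted p = 0.0201). Gjb6 averaged 19.6 ± 2.89 in Y402F and 30.3 ± 3.70 in Y402F controls (-0.60, SE 0.17, limma adjusted p = 0.0301). Of these 4 calls, that of Aldoc was the only one kept without each of the 4 libraries in turn. Fgfr3 was not called without Y402F replicate 1 (-0.54, limma adjusted p = 0.0667). Aldh1l1 was lost without Y402F replicate 1 (0.0769), Y402F replicate 2 (0.0812) and Y402F control replicate 1 (0.116). Gjb6 was lost without Y402F replicate 1 (0.174), Y402F replicate 2 (0.0533) and Y402F control replicate 2 (0.148). Aldh1l1 and Gjb6 were also lost with quantile normalization (limma adjusted p = 0.0555 for Aldh1l1 and 0.0695 for Gjb6) and with a term for sex (0.0528 and 0.0903), and Gjb6 with no filter on low values (0.0508) or no intensity trend (0.0514).

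Gfap, the marker that rises in reactive astrocytes, averaged 172 ± 14.3 scaled FPKM in Y402F and 141 ± 2.91 in Y402F controls (SD, n = 2 each; log2 difference 0.28, SE 0.10, limma adjusted p = 0.0681). Glul averaged 685 ± 68.0 in Y402F and 593 ± 2.82 in Y402F controls (0.20, SE 0.09, limma adjusted p = 0.106). Both missed the threshold here and passed it, higher in Y402F, with a term for sex (Gfap 0.39, limma adjusted p = 0.00435, and Glul 0.28, 0.0120). They also passed it with quantile normalization (Gfap 0.41, limma adjusted p = 0.00604, and Glul 0.38, 7.89e-04). Glul was called without Y402F replicate 1 as well (0.31, limma adjusted p = 0.0318). Sox9 differed by -0.10 (SE 0.14), S100b by -0.03 (SE 0.12), Aqp4 by -0.04 (SE 0.11) and Gja1 by 0.02 (SE 0.12), with limma adjusted p-values of 0.623 to 0.915.

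**Figure D2:**
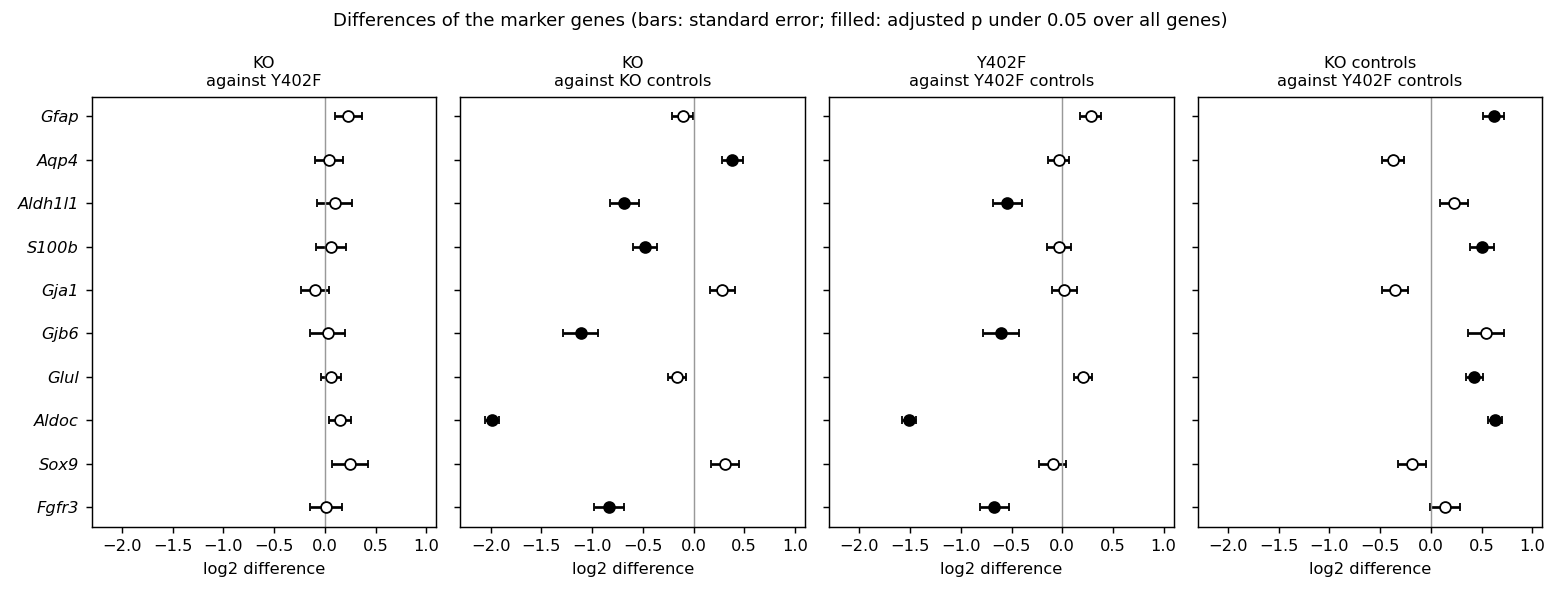
Log2 differences of the 10 marker genes, 1 row per gene and 1 panel per comparison, with bars for the standard error and filled points for genes called at an adjusted p under 0.05 over all genes. Aldoc lay furthest from 0 in both mutant-to-control panels (-1.99 in KO and -1.51 in Y402F), and all points of KO against Y402F were open.

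Whether the members responded differently to the mutations was tested as the KO effect minus the Y402F effect, in which a difference between the kinds of table drops out if it acts alike in the KO and Y402F lines. The limma test called 0 of the 10 members, while 5 had an unadjusted p under 0.05. Of all genes 0.0308% were called and 1690 had an unadjusted p under 0.05. The median difference of the members was -0.27, against 0.02 for all genes, and 7 of 10 were negative, meaning lower in KO relative to its controls than in Y402F relative to its own. Aldoc had the smallest p, with -0.48 (SE 0.10, limma adjusted p = 0.152). Glul followed with -0.36 (SE 0.12, limma adjusted p = 0.289), Aqp4 with 0.42 (SE 0.15, 0.308), Gfap with -0.39 (SE 0.14, 0.323) and S100b with -0.45 (SE 0.17, 0.326). The others were Gjb6 at -0.51 (SE 0.25), Sox9 at 0.41 (SE 0.19), Gja1 at 0.26 (SE 0.18), Fgfr3 at -0.17 (SE 0.21) and Aldh1l1 at -0.14 (SE 0.20). With a term for sex 1 member was called, Gfap (-0.60, limma adjusted p = 0.0477), while the number of calls among all 12973 genes was 138 with this term and 4 without it. Without the term, the sex patterns of the wild-type groups described above enter this contrast. The term itself rests on replicate 2 against replicate 1 of the mutants, and other differences between these libraries cannot be told apart from sex.

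**Figure D3:**
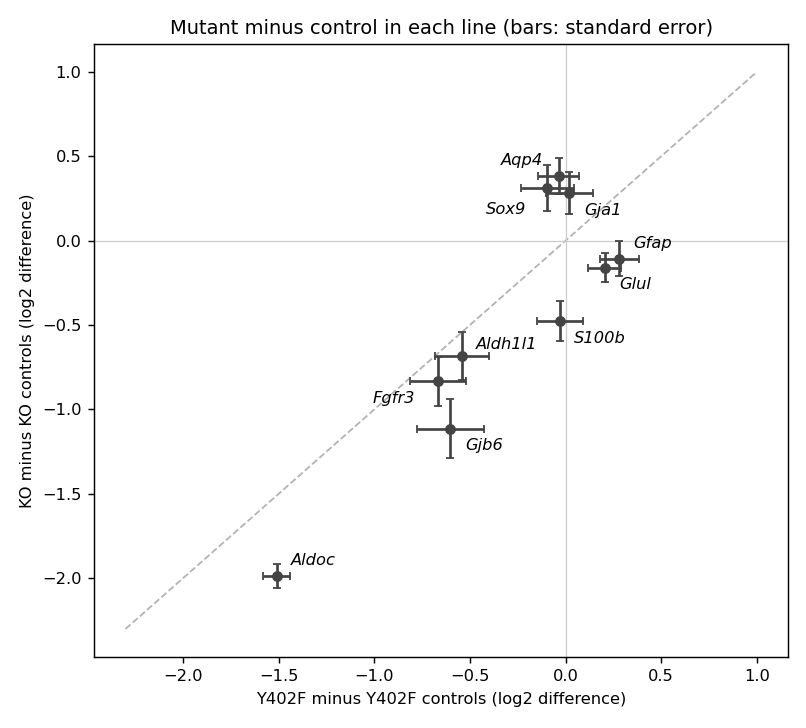
KO minus KO controls (vertical axis) against Y402F minus Y402F controls (horizontal axis) for the 10 marker genes, both as log2 differences, with bars for the standard error and the line of equal differences. Aldoc (-1.99 and -1.51), Gjb6 (-1.11 and -0.60), Fgfr3 (-0.83 and -0.67) and Aldh1l1 (-0.68 and -0.54) were negative on both axes, and Aqp4 was at 0.38 in KO and -0.04 in Y402F.

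KO was set against Y402F within one kind of table, to ask what the absence of the kinase adds to the absence of its autophosphorylation site. None of the 10 astrocyte markers differed detectably, and the fitted ratio of KO to Y402F was at most 1.19-fold. With edgeR 0 of 10 were called, as with DESeq2 and limma, and 0 had an unadjusted p under 0.05. Among all 12969 genes 0.00771% were called and 250 had an unadjusted p under 0.05. The members rested on 171 (Sox9 in Y402F replicate 2) to 11852 (Glul in the same library) expected counts. The median log2 difference of the members was 0.06, against -0.01 for all genes, with 9 of 10 positive.

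Gfap had the smallest p. It averaged 202 ± 24.98 scaled FPKM among KO libraries and 172 ± 14.3 among Y402F libraries (SD, n = 2 each; log2 difference 0.23, SE 0.13, edgeR adjusted p = 0.9998). Sox9 was at 8.70 ± 0.0479 in KO and 7.31 ± 0.213 in Y402F (0.25, SE 0.17), and Aldoc at 362 ± 5.59 in KO and 327 ± 21.6 in Y402F (0.15, SE 0.11). Both KO libraries were above both Y402F libraries for Gfap, Aldoc and Sox9 and below them for Gja1 (-0.10, SE 0.13), and 6 members overlapped. Of all genes 25.6% separated in this way. The others were Aldh1l1 at 0.10 (SE 0.17), S100b at 0.06 (SE 0.15), Glul at 0.06 (SE 0.10), Aqp4 at 0.04 (SE 0.14), Gjb6 at 0.03 (SE 0.17) and Fgfr3 at 0.01 (SE 0.16). None of these differences reached 2 of its standard errors, which ran from 0.10 to 0.17.

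The wild-type groups of the lines were also compared within one kind of table, and 4 of the 10 astrocyte markers were called. Before scaling, the FPKM of all genes summed to 3253974 and 3267638 in KO controls, against 2605463 and 2693245 in Y402F controls. The part of these totals in the marker differences was not tested. Gfap, S100b, Glul and Aldoc were called higher in KO controls than in Y402F controls, and no member was called lower. Of all genes 8.06% were called, 4.87% higher and 3.19% lower. The median log2 difference of the members was 0.33, against -0.02 for all genes. All 10 members separated without overlap between the groups, 7 higher and 3 lower in KO controls, as did 59.0% of all genes. The printed windows belong to these 4 called genes and to Gja1, one of the 3 that were lower.

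Aldoc averaged 1441 ± 37.2 scaled FPKM in KO controls and 931 ± 17.9 in Y402F controls (SD, n = 2 each), or 0.63 higher in log2 units (SE 0.07, limma adjusted p = 0.0110). Gfap averaged 217 ± 2.15 in KO controls and 141 ± 2.91 in Y402F controls, a difference of 0.62 (SE 0.10, limma adjusted p = 0.0173). Both were thus about as far apart, 1.55-fold and 1.53-fold. Glul averaged 799 ± 43.5 in KO controls and 593 ± 2.82 in Y402F controls (0.43, SE 0.09, limma adjusted p = 0.0281). S100b averaged 98.2 ± 2.69 in KO controls and 68.9 ± 1.90 in Y402F controls (0.50, SE 0.12, limma adjusted p = 0.0410). Lower in KO controls, without passing the test, were Aqp4 (-0.37, SE 0.11, limma adjusted p = 0.0667), Gja1 (-0.35, SE 0.12, 0.111) and Sox9 (-0.18, SE 0.14, 0.424). The remaining positive differences were those of Gjb6 (0.54, SE 0.17, limma adjusted p = 0.0906), Aldh1l1 (0.23, SE 0.14, 0.338) and Fgfr3 (0.14, SE 0.15, 0.569). Only the call of Aldoc was kept without each of the 4 control libraries in turn, and Gfap then had limma adjusted p-values of 0.0583 to 0.0721, Glul of 0.0756 to 0.131 and S100b of 0.110 to 0.147. Aldoc moved to 0.24 with quantile normalization (limma adjusted p = 0.0635), and without the intensity trend no member was called.

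Line, sex pattern and choroid plexus content went together in the wild-type groups, so their own libraries cannot tell these apart. A term for sex can be fitted because each mutant group held both patterns, and its size rests on the mutant libraries. In both mutant groups the male pattern was that of replicate 2, so the term cannot be told apart from other differences between the replicates. In Y402F these include the choroid plexus sum (40.02 in replicate 1 and 753 in replicate 2). With the term for sex Gfap differed by 0.83 (limma adjusted p = 0.00702), Glul by 0.59 (0.0120) and Aldoc by 0.68 (0.0108), all still called, and S100b was not called (0.44, 0.135). Some markers of other glia were also called higher in KO controls, beside 4.87% of all genes. The 12 oligodendrocyte markers summed to 4543 and 4674 scaled FPKM in KO controls, against 2990 and 3019 in Y402F controls, with most of both sums from Mbp (3487 and 3615 in KO controls, against 2109 and 2118 in Y402F controls). Of these 12, 2 were called higher, the myelin genes Mbp (0.75) and Cnp (0.79), and the median log2 difference of the list was 0.11. The 12 microglia markers summed to 454 and 461 in KO controls, against 332 and 303 in Y402F controls, with 4 called higher, C1qa (0.71), C1qb (0.78), C1qc (0.76) and Tyrobp (0.88), and a median log2 difference of 0.47. No marker of these lists was at 0 in any library, and in neither list was a marker called lower. The granule cell transcription factor gene Prox1 was at 8.64 and 9.28 in KO controls, against 17.7 and 15.4 in Y402F controls. It belongs to a list of 12 markers of hippocampal regions, of which 1 was called lower in KO controls and 0 higher. In that list 7 differences were positive, with a median log2 difference of 0.06. The part of these cell types in the astrocyte marker differences was not tested. In the mutants the oligodendrocyte markers summed to 3084 and 3650 in KO, against 2816 and 3122 in Y402F.

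The KO and Y402F effects each use one of the wild-type groups, so the comparison of the wild types shares its libraries with both. For S100b the log2 difference was -0.48 for KO against its controls, -0.03 for Y402F against its controls and 0.50 for KO controls against Y402F controls. For Aqp4 the same differences were 0.38, -0.04 and -0.37, and for Gfap -0.11, 0.28 and 0.62. KO against Y402F, in which none of these wild-type libraries enters, gave 0.06 for S100b, 0.04 for Aqp4 and 0.23 for Gfap, with edgeR and limma alike. Within one fit this difference follows by arithmetic from the others, so it is not independent of them.

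Beyond the 10 members, 101 other genes of astrocytes in 7 lists were followed, of which 91 were tested. In KO 11 were called higher and 25 lower than in KO controls (39.6% called, near the 37.6% of all genes). In Y402F 15 were called higher and 17 lower than in Y402F controls (35.2%, beside 32.3% of all genes). In KO controls 16 were called higher and 1 lower than in Y402F controls (18.7%, beside 8.06% of all genes). Neither KO against Y402F nor the difference of the effects called any of the 91, with 2 and 21 at an unadjusted p under 0.05.

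Of all genes, 16.6% were called higher and 21.0% lower in KO, and 13.0% and 19.3% in Y402F. For KO controls against Y402F controls the shares were 4.87% and 3.19%. The counts of each list below stand beside these shares, and no list was tested as a set. Genes are named by smallest p in each comparison, so a gene named for 1 mutant is not thereby particular to it. Among transporters and pumps, which clear glutamate, GABA and potassium, more genes were called higher than lower in both mutants. In KO 5 of 12 were called higher and 1 lower, among them the glutamate transporter genes Slc1a2 (257 scaled FPKM on average in KO and 171 in KO controls, log2 difference 0.57) and Slc1a3 (0.38) and the bicarbonate transporter gene Slc4a4 (0.61). In Y402F 4 of 12 were called higher and 1 lower, among them the potassium channel gene Kcnj10 (0.40) and the GABA transporter gene Slc6a11 (0.43). Kcnj10 also averaged 48.4 scaled FPKM in KO, against 35.1 in KO controls. In KO controls 1 of 12 was called higher than in Y402F controls, the amino acid transporter gene Slc7a10 (0.85). Of 8 genes of endfeet and adhesion, KO had 1 higher and 2 lower, Dag1 (dystroglycan, 0.35), Dmd (dystrophin, -1.11) and Itgb5 (an integrin, -1.002). Y402F had Mlc1 higher (0.47) and Dmd lower (-1.08), while Itgb5 averaged 14.9 scaled FPKM in Y402F and 11.4 in Y402F controls. KO controls had Itgb5 (1.24) and Mlc1 (0.71) higher than Y402F controls.

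Enzymes and lipid carriers had 2 of 16 higher and 6 lower in KO, and 3 higher and 5 lower in Y402F. Apoe, the main lipid carrier of the brain, averaged 1265 scaled FPKM in KO and 2824 in KO controls (-1.17, limma adjusted p = 3.35e-04). Ndrg2 was lower in both mutants (-0.98 in KO and -0.92 in Y402F), as was Pygb, the brain glycogen phosphorylase gene (-0.82 and -0.69), and Clu, the clusterin gene, was lower in Y402F (-0.41). Apoe was also lower on average in Y402F (1180 scaled FPKM, against 1895 in its controls), and Clu in KO (732, against 875 in its controls). In KO controls 3 of 16 were higher than in Y402F controls, the acyl-CoA synthetase gene Acsbg1 (0.84), Apoe (0.58) and Pla2g7 (0.37). Secreted and receptor genes had 9 of 22 lower and 0 higher in KO, and 6 lower and 2 higher in Y402F. Mt2, a metal-binding metallothionein, was at -1.47 in KO and -0.85 in Y402F, and Ttyh1 at -1.17 and -0.77. Htra1, a secreted protease gene, was at -1.24 in KO, and the metallothionein gene Mt3 at -0.45 in Y402F. On average Htra1 was lower in Y402F as well (73.2 scaled FPKM, against 105.6 in its controls), and Mt3 in KO (1158, against 1651 in its controls). In KO controls 9 of 22 were called higher than in Y402F controls and none lower. They were led by Mt1 (890.2 scaled FPKM in KO controls and 593 in Y402F controls, 0.59), the cystatin C gene Cst3 (3128 and 1811, 0.79) and Mt2 (605 and 329.7, 0.88).

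Of 13 transcription factors tested, 1 was higher and 3 lower in KO, and likewise in Y402F. Id4, an inhibitor of differentiation, was higher in both (0.81 in KO and 0.73 in Y402F), and Stat3, a mediator of astrocyte reactivity, lower in both (-1.35 and -1.53). Hes1, a Notch target, was lower in KO (-1.35). Nfix was lower in Y402F (-0.65) and in KO controls relative to Y402F controls (-0.67). Of 20 genes of reactive astrocytes, 12 passed the filter on low values. In KO 1 was called higher, the class I gene H2-D1 (0.49), and 1 lower, the ceruloplasmin gene Cp (-1.06). In Y402F 3 were called higher, H2-D1 (0.72), the small heat shock gene Hspb1 (0.90) and Serpina3n (36.3 scaled FPKM on average in Y402F and 22.9 in Y402F controls, 0.65). In KO controls Hspb1 alone was called higher than in Y402F controls (0.97). Lcn2, which rises strongly in reactive astrocytes, did not exceed 0.744 scaled FPKM in any library. Of 8 tested markers of radial glia-like stem cells, KO had E2f1 (0.57) higher and 3 lower, among them Prom1 (-1.09) and Hopx (-0.45). Y402F had E2f1 higher (0.63) and Lpar1 lower (-0.997), and in KO controls against Y402F controls none of the 8 was called, with Hopx at 0.41 (limma adjusted p = 0.0734).

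**Figure D4:**
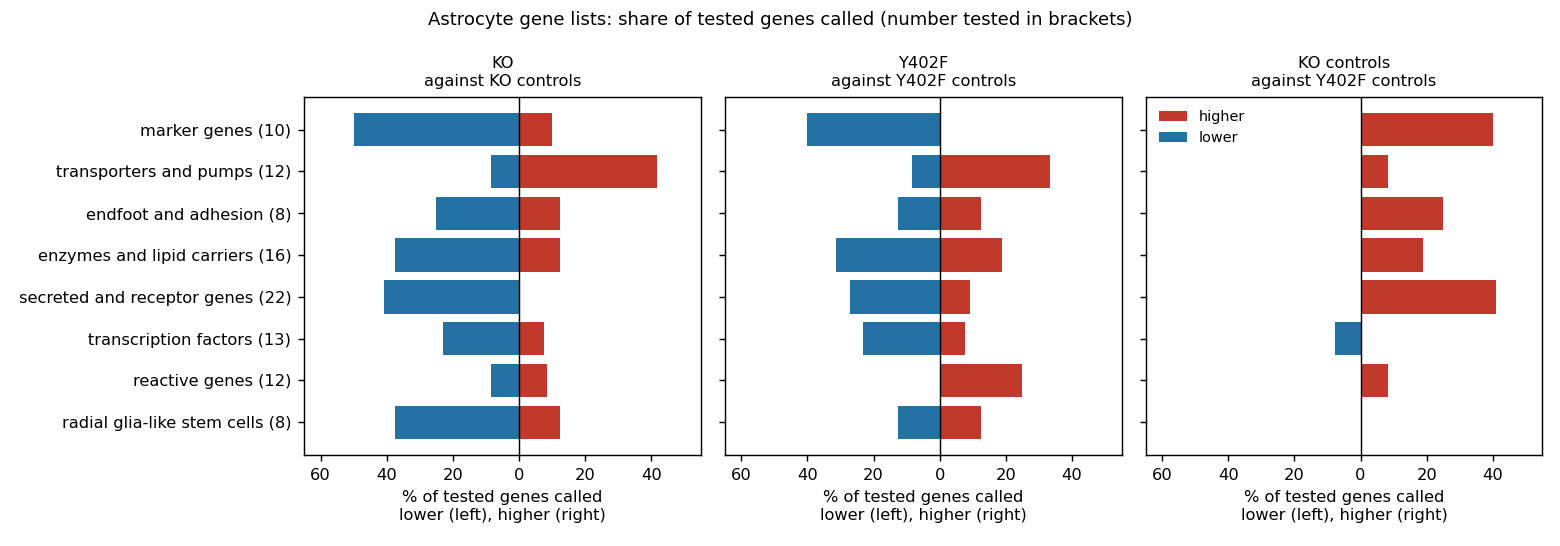
Share of tested genes called higher (right) and lower (left) in each list of astrocyte genes, 1 panel per comparison, in percent of the genes tested (number in brackets). Secreted and receptor genes had 9 of 22 lower in KO against KO controls and 9 of 22 higher in KO controls against Y402F controls, and transporters and pumps had 5 of 12 higher in KO against KO controls. Of all genes, 21.0% were called lower and 16.6% higher in KO against KO controls, and 4.87% higher in KO controls against Y402F controls.

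Aldoc and Gjb6 varied most over the 8 libraries, and the genes with the most similar profile were sought after each profile was centred separately over the 4 mutant and the 4 control libraries. Centring takes out the mean difference between mutants and controls, so the likeness refers only to the variation that remained. For Aldoc the remaining root-mean-square variation was 0.232 on the log2 scale. Aldoc ranged 1.18-fold among the mutants and 1.60-fold among the controls, where the KO controls lay above the Y402F controls. A separation of these wild-type groups without overlap, in either direction, was found for 59.0% of all genes. The most similar genes were Rpl38, a ribosomal protein gene (distance 0.0125), Itpk1, an inositol phosphate kinase gene (0.0322), and Uqcr11, a respiratory chain gene (0.0340). Rpl38 was at 278 and 269.6 scaled FPKM in KO, 241 and 258 in Y402F, 342 and 355 in KO controls and 229 and 224 in Y402F controls. For Gjb6, with a remaining variation of 0.243, they were Immp1l, a mitochondrial peptidase gene (0.0627), Mrpl10, a mitochondrial ribosomal protein gene (0.0635), and Cactin (0.0646). The 8 points of a profile share library and depth, and these are descriptions with no test.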

How the data were processed

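RNA-seq of 8 hippocampal libraries was used from the authors' processed tables. For the mutants the authors deposited, per Entrez gene, FPKM, transcript length and an expected count; for the controls they deposited FPKM per Ensembl gene with confidence bounds. The submitters' processing notes name Bowtie 1, HISAT and mm9 for every sample, and Cufflinks for controls alone, while gene positions in the control tables lie on GRCm38. No source used here names the counting program. Of the expected counts, 81.1 to 81.7% were whole within 0.005.

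Of 18022 genes in the mutant tables, 17629 had a counterpart in the controls by symbol and 89 by Entrez number; 13 were dropped for a repeated identity, leaving 17705. FPKM of 53 control genes split over loci was summed. FPKM was divided by median-of-ratios factors (scaled FPKM). Unscaled, the median gene differed by -0.12 (log2) between mutants and controls in both lines. Genes averaging 1 FPKM or more were tested with limma 3.58.1 and an intensity trend on log2(scaled FPKM + 1), all 8 libraries in 4 groups, with 4 residual degrees of freedom; on this scale log2 differences understate changes of low genes. KO against Y402F was tested with edgeR 4.0.16 (quasi-likelihood, TMM) on expected counts rounded to whole numbers, with 2 residual degrees of freedom, and DESeq2 1.42.0 as an alternative. Adjusted p-values are Benjamini-Hochberg over all genes tested, called under 0.05. The fits were tested on simulated data with equal noise in all libraries. These data held no difference of table kind, sex or choroid plexus, so they do not show how the fits behave under those.

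The members and lists were chosen with earlier results of these data known. All members are named; of other astrocyte lists up to 3 called genes per list and comparison, by smallest p, or else the gene with the smallest p. One gene that this rule names is not reported here. Lcn2, Prox1 and the oligodendrocyte and microglia genes named were picked with their values in view. The alternatives were pseudocount, filter, scaling, trend, replicate block, subsets of libraries and a term for sex, the last added with results known. Replicate numbers were not shown to pair libraries. Sequences are from RefSeq (GRCm38.p6). Fits were run in R 4.3.3; tables and figures were made in Python 3.11.15 with numpy 2.4.6, pandas 2.3.3 and matplotlib 3.10.9.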

Additional observations from a re-analysis of the deposited data

How the results depend on the processing

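The count of members called in KO against KO controls (6) ranged from 4 to 8 over all alternatives. In KO controls against Y402F controls the count of 4 became 2 with no filter on low values, 2 with quantile normalization, 0 without the intensity trend and 1 without any one of the libraries (lowest and highest 1). The calls among all genes also became fewer, from 1046 to 514, 733, 170 and 177 to 266 in the same settings. The term for sex gave 3 members (S100b lost) and 1283 genes. In Y402F against Y402F controls the count of 4 was 2 to 3 with 1 library left out. In the difference of effects it was 0, and 1 with the term for sex, where calls among all genes were 138 instead of 4. KO against Y402F gave 0 members under each of its alternatives, DESeq2 and limma included. With a replicate block the counts were 6 in KO, 4 in Y402F, 3 in the wild-type groups (S100b lost, limma adjusted p = 0.0501) and 0 in the others. The numbers do not pair the libraries by the labels, and replicate differences correlated at 0.20 between KO and Y402F and at -0.03 to 0.05 between the other groups. Directions turned with quantile normalization for Gfap (0.19) and Glul (0.20) in KO, and for Aqp4 (0.12) and S100b (0.17) in Y402F. They turned without scaling for Gja1 in Y402F (-0.13) and with limma for Fgfr3 in KO against Y402F (-0.025). With 1 library left out, Gfap in KO ran from -0.23 to 0.019. In Y402F, Aqp4 ran from -0.081 to 0.020, S100b from -0.11 to 0.064 and Gja1 from -0.042 to 0.094. In the difference of effects, Aldh1l1 ran from -0.30 to 0.0018 and Fgfr3 from -0.35 to 0.0033. In KO against Y402F, S100b ran from -0.11 to 0.22, Gjb6 from -0.11 to 0.19, Aldh1l1 from -0.054 to 0.24, Fgfr3 from -0.18 to 0.18, Glul from -0.036 to 0.17 and Aqp4 from -0.00033 to 0.10. The cause of these changes was not tested, beyond the smaller number of libraries in the last. A fit that leaves a group with 1 library assumes that it varies like the others. Quantile normalization moved the median of all genes by 0.08 to 0.09 in the mutant comparisons, and leaving out scaling by -0.12. With 2 libraries per group, and no counts for the controls, precision is set by the shared spread, and small differences were not detectable.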
